A study of Mus musculus with 36 samples.

Results

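The 10 genes described here, Trem2, Gpnmb, Spp1, Apoe, Fabp5, Lgals3, Cd9, Ctsb, Ctsd and Ctsl, mark macrophages that take up lipid and cell debris in wounded or fatty tissue. They were listed by name and matched by gene symbol. They are 10 of the 55291 genes in a table of raw RNA-seq counts from mouse knee joint tissue, and all 10 had enough counts to be tested. The table holds 9 of the 36 libraries of a study of protein kinase C (PKC) and Hippo signalling in knees with an injured anterior cruciate ligament (ACL). The 3 groups have 3 biological replicates each: knees with ACL injury and a PKC inhibitor (PKCi), knees with ACL injury and 0.9% saline as vehicle, and sham knees in which the ACL was not injured, each collected at 24 h. The labels name neither the inhibitor nor the strain, sex, age or genotype of the mice, and 1 protocol text calls the material joint cartilage where the others say knee joint tissue.

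Macrophages that engulf dying cells and lipoprotein must break down protein in lysosomes and pass the released cholesterol and fatty acids on. TREM2 is a surface receptor that senses lipids and apolipoproteins and signals through the adaptor TYROBP (DAP12) and the kinase SYK. Cells with an active TREM2 programme are known for high GPNMB, osteopontin (Spp1), apolipoprotein E, fatty acid binding protein 5, galectin-3 (Lgals3), the tetraspanin CD9 and lysosomal cathepsins. Many of them are made by other cells as well: osteopontin, for example, is also a product of bone cells.

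Windows at RefSeq starts are shown for 5 of the genes, since Ctsl and Lgals3 rose after injury, and Ctsd, Trem2 and Gpnmb hold a motif searched for. Each window runs from 250 bases before to 50 bases from the RefSeq start (GRCm38.p6, a patch release of the mm10 assembly), written 5′ to 3′ on the gene's own strand. RefSeq windows were found for 8 of the 10 genes, 11 windows in all, and not for Fabp5 and Ctsb. Capitals mark CACGTG, the core of the element bound by TFEB, TFE3 and MITF at many lysosomal genes, its longer form TCACGTGA, which contains it, and TGANTCA. The last is a looser pattern that includes the AP-1 element TGA(C/G)TCA, which phorbol esters activate through PKC. Each reads the same on both strands, so both were searched.
Ctsl, chr13:64370471-64370770, minus strand: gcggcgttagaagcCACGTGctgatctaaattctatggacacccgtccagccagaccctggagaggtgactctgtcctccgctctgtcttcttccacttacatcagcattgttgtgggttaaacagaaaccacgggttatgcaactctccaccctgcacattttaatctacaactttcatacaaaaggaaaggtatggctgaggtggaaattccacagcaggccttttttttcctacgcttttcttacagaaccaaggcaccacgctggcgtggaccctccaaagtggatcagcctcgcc
Lgals3, chr14:47373610-47373909, plus strand: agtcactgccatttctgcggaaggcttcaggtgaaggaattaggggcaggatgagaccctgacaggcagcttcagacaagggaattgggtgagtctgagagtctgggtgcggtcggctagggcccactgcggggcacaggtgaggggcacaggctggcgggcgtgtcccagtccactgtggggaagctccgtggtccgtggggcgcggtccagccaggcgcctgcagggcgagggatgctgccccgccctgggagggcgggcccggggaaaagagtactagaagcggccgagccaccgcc
Ctsd, chr7:142387778-142388077, minus strand: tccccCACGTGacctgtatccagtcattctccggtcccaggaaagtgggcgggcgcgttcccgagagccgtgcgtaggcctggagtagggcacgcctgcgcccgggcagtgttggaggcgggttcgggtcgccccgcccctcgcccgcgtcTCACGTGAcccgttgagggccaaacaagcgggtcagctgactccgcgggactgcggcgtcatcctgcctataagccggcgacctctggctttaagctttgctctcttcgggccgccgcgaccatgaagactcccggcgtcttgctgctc
Trem2, chr17:48346151-48346450, plus strand: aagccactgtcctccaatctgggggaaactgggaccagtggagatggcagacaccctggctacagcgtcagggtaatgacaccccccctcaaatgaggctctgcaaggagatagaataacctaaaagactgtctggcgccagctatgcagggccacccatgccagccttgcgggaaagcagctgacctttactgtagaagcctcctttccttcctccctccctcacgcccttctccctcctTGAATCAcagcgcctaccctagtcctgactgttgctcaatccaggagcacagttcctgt
Gpnmb, chr6:49036268-49036567, plus strand: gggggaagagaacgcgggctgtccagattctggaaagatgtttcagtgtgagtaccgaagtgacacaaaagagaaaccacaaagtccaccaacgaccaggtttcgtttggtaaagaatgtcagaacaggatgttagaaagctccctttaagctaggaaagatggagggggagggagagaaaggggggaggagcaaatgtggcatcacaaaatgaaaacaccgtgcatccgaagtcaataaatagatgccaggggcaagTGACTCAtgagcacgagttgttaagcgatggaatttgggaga
CACGTG was found in Ctsl, 236 bases before the start, and in Ctsd, 245 and 98 bases before it, the second inside TCACGTGA. It stands in 7.15% of 32851 RefSeq windows and TCACGTGA in 0.974%. TGANTCA was found in Trem2 as TGAATCA, 9 bases before the start, which matches the looser pattern only. In Gpnmb it was found as TGACTCA, at base 9 counted from the RefSeq start. TGANTCA stands in 7.81% of windows. The Gpnmb gene as counted begins downstream of its TGACTCA, at 49036546, and no annotated Gpnmb transcript searched held the end of this window. The Lgals3 window and those of Spp1, Apoe and Cd9 hold none of these motifs. The genes of these windows lie on mm10, per the file header, at 13:64359337-64370890 (Ctsl), 14:47367751-47386160 (Lgals3), 7:142375911-142388038 (Ctsd), 17:48346401-48354147 (Trem2) and 6:49036546-49070929 (Gpnmb). The other 5 lie at 5:104435118-104441050 (Spp1), 7:19696109-19699188 (Apoe), 3:10012548-10016607 (Fabp5), 6:125460266-125494791 (Cd9) and 14:63122462-63145923 (Ctsb). The Ctsl and Lgals3 windows lie wholly, and the Ctsd window partly, inside the span of their own gene. Their RefSeq starts are thus internal to the gene as counted. The CACGTG of Ctsl and the TCACGTGA of Ctsd also lie within the gene, not upstream of it.

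The libraries hold 124 to 202 M counts, of which 91.2% to 98.2% fell on 7SL RNA genes (7SL is part of the signal recognition particle). The 10 genes had 2380 to 16352 counts in all per library. PKCi replicates 1 and 2 stood apart, with the lowest 7SL shares, at 91.5% and 91.2%, and the most counts outside 7SL, at 11.9 and 11.4 M, against 3.28 to 5.25 M in the other 7 libraries. Sham replicate 1 also stood apart, with 1177819 counts on 1 gene, Nemf, against 45 to 195 in the other 8 libraries, and it had the lowest normalised count of the 9 for Cd9, Lgals3, Ctsb, Ctsd and Ctsl. Leaving out Nemf and the 7SL genes did not change how many of the 10 genes passed the test in any comparison. Levels below are normalised counts, that is counts scaled to a common library size by edgeR's TMM factors, as mean ± SD of 3 libraries. These factors were 1.73 and 3.64 for PKCi replicates 1 and 2, against 0.63 to 1.01 in the other 7 libraries. The library sizes after scaling were 242 and 467 M for these 2, against 96.4 to 156 M. Every adjusted p is from edgeR's two-sided quasi-likelihood test with Benjamini-Hochberg adjustment over 13823 genes, a gene is said to have risen or fallen at an adjusted p under 0.05, and intervals of log2 fold changes are 95% intervals.

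Macrophage markers were detected in each group: of 20, none was at 0 in a whole group. Their summed level had a lowest, median and highest value of 3657, 4377 and 5658 in PKCi knees, 3370, 3677 and 5033 in vehicle knees, and 3400, 3840 and 4175 in sham knees. These ranges overlap. Lyz2, the lysozyme gene with the highest level of the list and a large part of the sum, had 1724 ± 611 normalised counts in PKCi, 1449 ± 391 in vehicle and 1617 ± 245 in sham knees. The mean log2 CPM of Adgre1, Csf1r, C1qa, C1qb and C1qc, a set chosen after the data had been seen, separated PKCi from sham knees. It was 0.19, 0.37 and 0.41 in PKCi, -0.09, -0.25 and 0.45 in vehicle, and -0.17, 0.05 and -0.15 in sham knees. Of the 18 macrophage markers tested, Cd68, a lysosomal membrane glycoprotein, rose in PKCi against sham knees (2.25-fold, adjusted p = 0.0236), with 207 ± 58.7 in PKCi, 145 ± 27.2 in vehicle and 92.2 ± 23.0 in sham knees. For PKCi against sham 14 of the 18 were higher and 4 lower, with a median log2 fold change of 0.38, and DESeq2 called 3 higher, Mrc1, Cd68 and Cd14. For PKCi against vehicle edgeR called 0, with a median of 0.15 and 2 higher at an unadjusted p under 0.05, and DESeq2 called 1, Mrc1. For vehicle against sham edgeR called 0, with a median of 0.22 and 4 higher at an unadjusted p under 0.05, and DESeq2 called 1, Cd14. In bulk tissue, more macrophages and more RNA per macrophage cannot be told apart. Chondrocyte and bone markers were present too: the summed chondrocyte list ran from 1813 to 4776 in PKCi knees, 8041 to 10777 in vehicle knees and 8372 to 25793 in sham knees.

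Scaled for exon length, osteopontin had the highest mean level of the 10 genes in each group and Trem2 and Gpnmb the lowest. Per kilobase of exon, Spp1 stood at 595 ± 289.6 normalised counts in PKCi, 1021 ± 69.9 in vehicle and 559.6 ± 129 in sham knees. Trem2 stood at 7.84 ± 3.41 in PKCi, 6.43 ± 2.19 in vehicle and 3.78 ± 2.59 in sham knees, and its range overlapped that of Gpnmb in each of them. In vehicle knees Spp1 lay above all other members in every library, whereas Ctsd, Apoe, Lgals3 and Ctsb each overlapped their neighbour in the order. In PKCi knees the ranges of Spp1, Apoe and Ctsd overlapped. In sham knees Ctsd overlapped both of the others, and every Spp1 value lay above every Apoe value. The lengths count the exons of all annotated isoforms, so the scaled level of a gene with long alternative exons is understated.

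**Figure D1:**
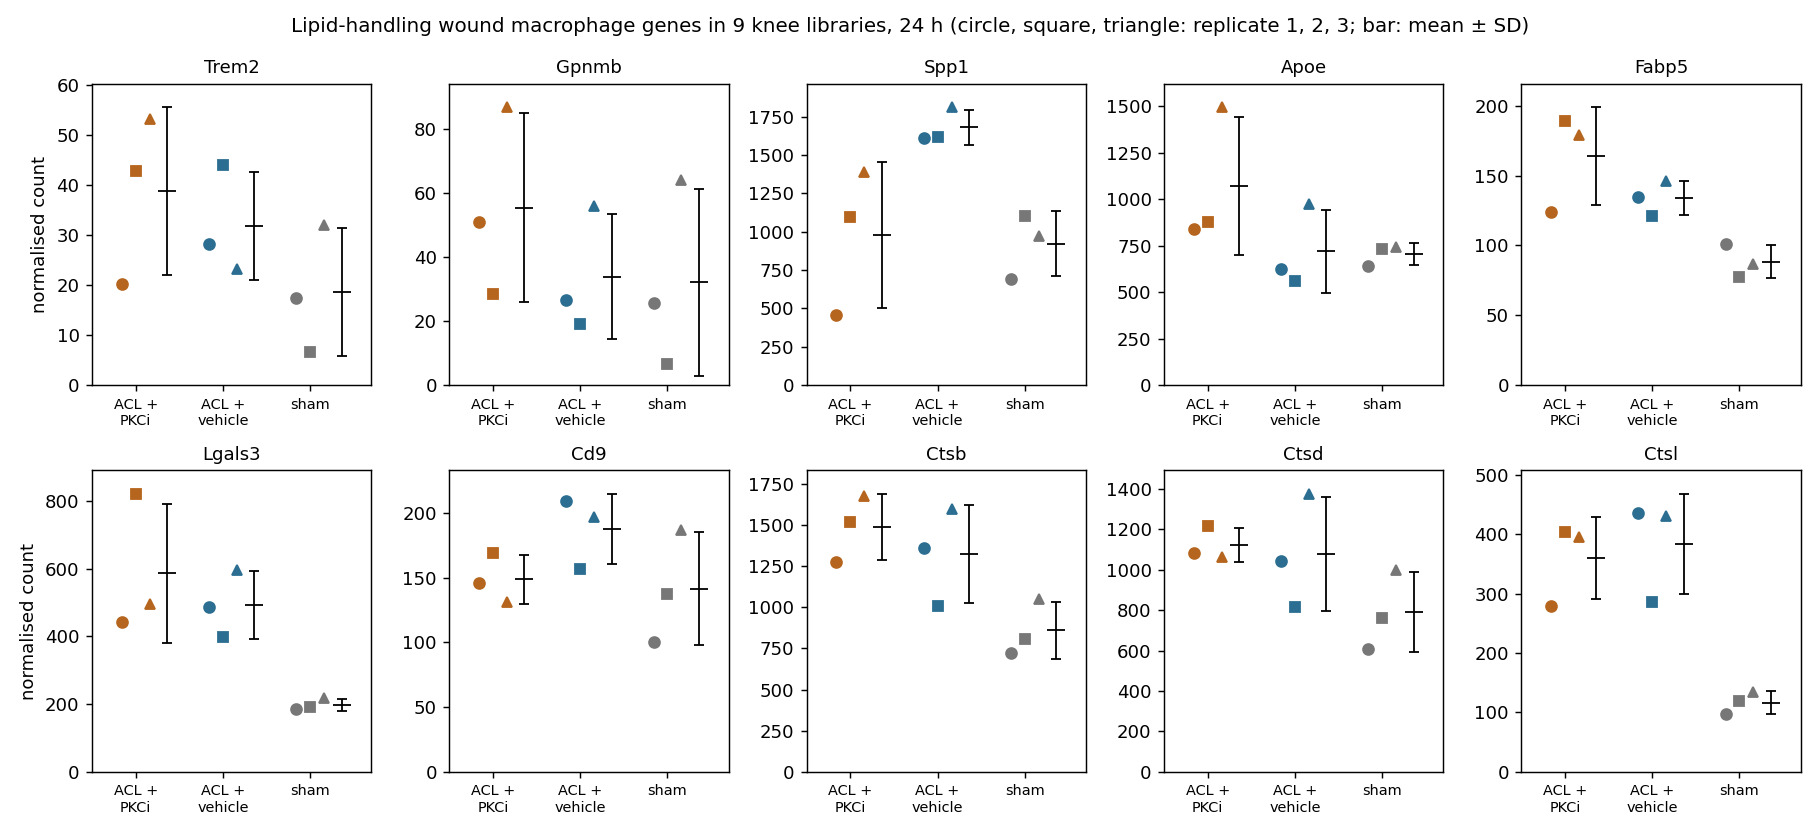
Normalised counts (linear axes from 0) of the 10 genes by library. Circles, squares and triangles are replicates 1, 2 and 3, and the bar is mean ± SD. For Ctsl and Lgals3 all PKCi and all vehicle libraries lie above all sham libraries, whereas Spp1 is highest in the 3 vehicle libraries, at 1613 to 1816.

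Among the receptors and membrane proteins, Trem2, Gpnmb and Cd9 did not pass the test in any comparison. Trem2, the receptor itself, had 20.3, 42.9 and 53.2 normalised counts in PKCi knees, 28.2, 44.0 and 23.2 in vehicle knees, and 17.4, 6.56 and 32.1 in sham knees. The groups overlap, and sham replicates 1 and 2 are the 2 lowest of the 9 libraries. These values rest on 5 to 110 reads per library. For PKCi against vehicle the log2 fold change was 0.26 (interval -0.80 to 1.33, adjusted p = 0.86), and for PKCi against sham it was 1.08 (-0.04 to 2.21, adjusted p = 0.3). For vehicle against sham it was 0.82 (-0.33 to 1.97, adjusted p = 0.746).

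Gpnmb, a transmembrane glycoprotein of lysosomes and the cell surface, had 51.0, 28.4 and 87.0 normalised counts in PKCi knees, 26.6, 19.0 and 55.9 in vehicle knees, and 25.6, 6.56 and 64.1 in sham knees. Each group spans a wide range, and all 3 overlap. The spread within sham knees (coefficient of variation 91.4%) was the largest of any member in any group. The log2 fold change was 0.68 for PKCi against vehicle (interval -0.84 to 2.20, adjusted p = 0.707), 0.81 for PKCi against sham (-0.74 to 2.36, adjusted p = 0.595) and 0.13 for vehicle against sham (-1.47 to 1.73, adjusted p = 0.985). The value for PKCi against vehicle was 0.21 without PKCi replicate 3 and 1.26 without vehicle replicate 3, and that for PKCi against sham was 0.30 without sham replicate 2 and 1.73 without sham replicate 3. Gpnmb is also a melanocyte gene, and of 6 melanocyte markers Tyr and Tyrp1 were at 0 in all 3 groups and none had enough counts to be tested. No marker of the osteoblast and osteocyte or osteoclast lists was at 0 in a whole group. The part of these and other cells in the Gpnmb values was not tested.

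Cd9, a tetraspanin that organises membrane proteins, had 146, 169 and 131 normalised counts in PKCi knees, 209, 157 and 196 in vehicle knees, and 100.0, 138 and 187 in sham knees. All 3 groups overlap. Its log2 fold change was -0.33 for PKCi against vehicle (interval -0.84 to 0.18, adjusted p = 0.578), 0.09 for PKCi against sham (-0.43 to 0.60, adjusted p = 0.888) and 0.42 for vehicle against sham (-0.10 to 0.93, adjusted p = 0.703).

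The secreted proteins differed from one another. Lgals3 encodes galectin-3, a lectin that binds glycans on the cell surface and on damaged lysosomes. It had 442, 822 and 496 normalised counts in PKCi knees, 487, 397 and 596 in vehicle knees, and 186, 190.1 and 217 in sham knees. Every injured knee lay above every sham knee, and the 2 injured groups overlapped. Against sham, Lgals3 rose 2.98-fold in PKCi knees (log2 fold change 1.57, SE 0.25, adjusted p = 0.00475) and 2.50-fold in vehicle knees (log2 fold change 1.32, SE 0.25, adjusted p = 0.0344). PKCi and vehicle knees differed by 0.25 on the log2 scale (interval -0.25 to 0.76, adjusted p = 0.681). The rise in PKCi knees passed the test with any 1 library left out, with adjusted p values up to 0.0322. The rise in vehicle knees did not: its adjusted p was 0.198, 0.19 and 0.122 without sham replicate 1, 2 or 3, and 0.165, 0.0522 and 0.274 without vehicle replicate 1, 2 or 3.

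Spp1 had 456, 1097 and 1389 normalised counts in PKCi knees, 1613, 1619 and 1816 in vehicle knees, and 689.5, 1104 and 973 in sham knees. The 3 vehicle libraries are the 3 highest of the 9, and PKCi and sham knees overlap. The log2 fold change was -0.78 for PKCi against vehicle (SE 0.33, interval -1.49 to -0.07, unadjusted p = 0.0345, adjusted p = 0.327), a 1.72-fold lower level that did not pass the test. It was 0.87 for vehicle against sham (interval 0.15 to 1.58, adjusted p = 0.443) and 0.09 for PKCi against sham (-0.62 to 0.80, adjusted p = 0.918). Without PKCi replicate 1, the lowest library, the difference from vehicle was -0.43 (adjusted p = 0.434), and the value for vehicle against sham was 0.87 (adjusted p = 0.0254). The summed level of 11 osteoblast and osteocyte markers was also lower in PKCi than in vehicle knees. It was 23420, 20725 and 50685 in PKCi replicates 1 to 3, against 62479 to 72384 in vehicle knees and 65844 to 112708 in sham knees. Nearly all of this sum was the collagen gene Col1a1, at 28600 ± 14927 in PKCi and 63153 ± 4637 in vehicle knees. Ibsp, the next highest, had 870 ± 579 in PKCi and 973 ± 191 in vehicle knees (log2 fold change -0.16). None of the 11 markers was at 0 in any group, all 11 had a negative log2 fold change for PKCi against vehicle, and edgeR called none of them changed (0 higher and 1 lower at an unadjusted p under 0.05), while DESeq2 called 1 lower, Col1a1. Their part in the Spp1 values was not tested. Spp1 shares exon sequence with Gm42793, which held 1818 counts against 10110 of Spp1, and such reads were counted for both.

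Apoe, the lipid carrier through which macrophages release cholesterol, had 840.1, 876 and 1497 normalised counts in PKCi knees, 623, 561 and 973 in vehicle knees, and 638, 733 and 743 in sham knees. All PKCi libraries lie above all sham libraries, while vehicle replicate 3 reaches into the PKCi range. Apoe was 1.49-fold higher in PKCi than in vehicle knees (log2 fold change 0.57, interval 0.03 to 1.12, unadjusted p = 0.0404, adjusted p = 0.346) and 1.52-fold higher in PKCi than in sham knees (0.60, interval 0.06 to 1.15, adjusted p = 0.225). Neither passed the test. The first value ran from 0.25 without PKCi replicate 3 to 0.85 without vehicle replicate 3, and the second from 0.28 without PKCi replicate 3 to 0.75 without PKCi replicate 1. Vehicle and sham knees differed by 0.03 (interval -0.52 to 0.57, adjusted p = 0.991).

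Fabp5, a cytosolic carrier of fatty acids, had 124, 189 and 179 normalised counts in PKCi knees, 135, 121 and 146 in vehicle knees, and 101, 77.3 and 86.7 in sham knees. Every injured knee lay above every sham knee. Fabp5 rose 1.85-fold in PKCi against sham knees (log2 fold change 0.89, SE 0.23, adjusted p = 0.0426). It was 1.51-fold higher in vehicle than in sham knees (0.60, adjusted p = 0.448) and differed by 0.29 between PKCi and vehicle knees (interval -0.19 to 0.77, adjusted p = 0.6), neither of which passed. The log2 fold change stayed between 0.77 and 1.06 with 1 library left out, while the call did not hold except without PKCi replicate 1 (adjusted p = 0.00878). Its adjusted p was 0.0972, 0.154 and 0.129 without sham replicate 1, 2 or 3, 0.0697, 0.0651 and 0.0728 without vehicle replicate 1, 2 or 3, and 0.146 and 0.0967 without PKCi replicate 2 or 3. Its processed pseudogenes Gm6166 and Gm14328, at 98.3% and 97.3% identity over 409 and 408 bases, held 36 and 4 counts, so few reads were shared with them.

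Of the 3 lysosomal cathepsins, Ctsl, a cysteine protease, rose in injured knees, while Ctsb and Ctsd had higher means there that did not pass the test. It had 279.8, 404 and 395 normalised counts in PKCi knees, 435, 286 and 429.7 in vehicle knees, and 96.5, 119 and 134 in sham knees. The lowest injured knee stands well above the highest sham knee. Against sham, Ctsl rose 3.10-fold in PKCi knees (log2 fold change 1.63, SE 0.24, adjusted p = 0.00321) and 3.30-fold in vehicle knees (1.72, SE 0.24, adjusted p = 0.00583, the fifth smallest p of all genes tested). PKCi and vehicle knees differed by -0.09 (interval -0.57 to 0.38, adjusted p = 0.895), so a difference of more than 0.57 on the log2 scale lies outside the interval. The rise in PKCi knees passed with any 1 library left out (adjusted p up to 0.0255). The rise in vehicle knees had an adjusted p of 0.0892 and 0.0862 without sham replicate 1 or 2, and of 0.0504 and 0.0636 without vehicle replicate 1 or 3. Stretches of Ctsl exons resemble many other transcripts, such as Cflar (95.2% identity over 188 bases) and Crebbp (95.9% over 170 bases). These held 4851 and 3014 counts, against 2778 of Ctsl. How many Ctsl counts came from reads that map to several places was not tested.

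Ctsb, a further cysteine protease, had 1274, 1521 and 1673 normalised counts in PKCi knees, 1361, 1009 and 1597 in vehicle knees, and 719.7, 808 and 1050.4 in sham knees. The PKCi libraries lie above all sham libraries, and vehicle replicate 2 falls below sham replicate 3. The log2 fold change was 0.79 for PKCi against sham (1.73-fold, interval 0.32 to 1.27, adjusted p = 0.0592), 0.62 for vehicle against sham (1.54-fold, 0.15 to 1.10, adjusted p = 0.381) and 0.17 for PKCi against vehicle (-0.30 to 0.64, adjusted p = 0.781). None passed the test with all 9 libraries. Without PKCi replicate 1, the value for PKCi against sham was 0.90 (adjusted p = 0.0199). A stretch of 774 bases of Ctsb, compared on both strands, is identical to Fdft1, which held 438 counts. No other gene was found to overlap the exons of Ctsb on the same strand, and reads were counted by strand.

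Ctsd, an aspartic protease, had 1084, 1219 and 1066 normalised counts in PKCi knees, 1045, 818 and 1378 in vehicle knees, and 607, 760.4 and 1001 in sham knees. The PKCi libraries again lie above all sham libraries, though only just. The log2 fold change was 0.51 for PKCi against sham (interval 0.02 to 1.0, adjusted p = 0.259), 0.45 for vehicle against sham (-0.04 to 0.95, adjusted p = 0.64) and 0.06 for PKCi against vehicle (-0.43 to 0.55, adjusted p = 0.942). Ctsd shares exons with the gene model Gm49369, which held 4541 counts against 9355 of Ctsd. Reads in the shared exons were counted for both.

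**Figure D2:**
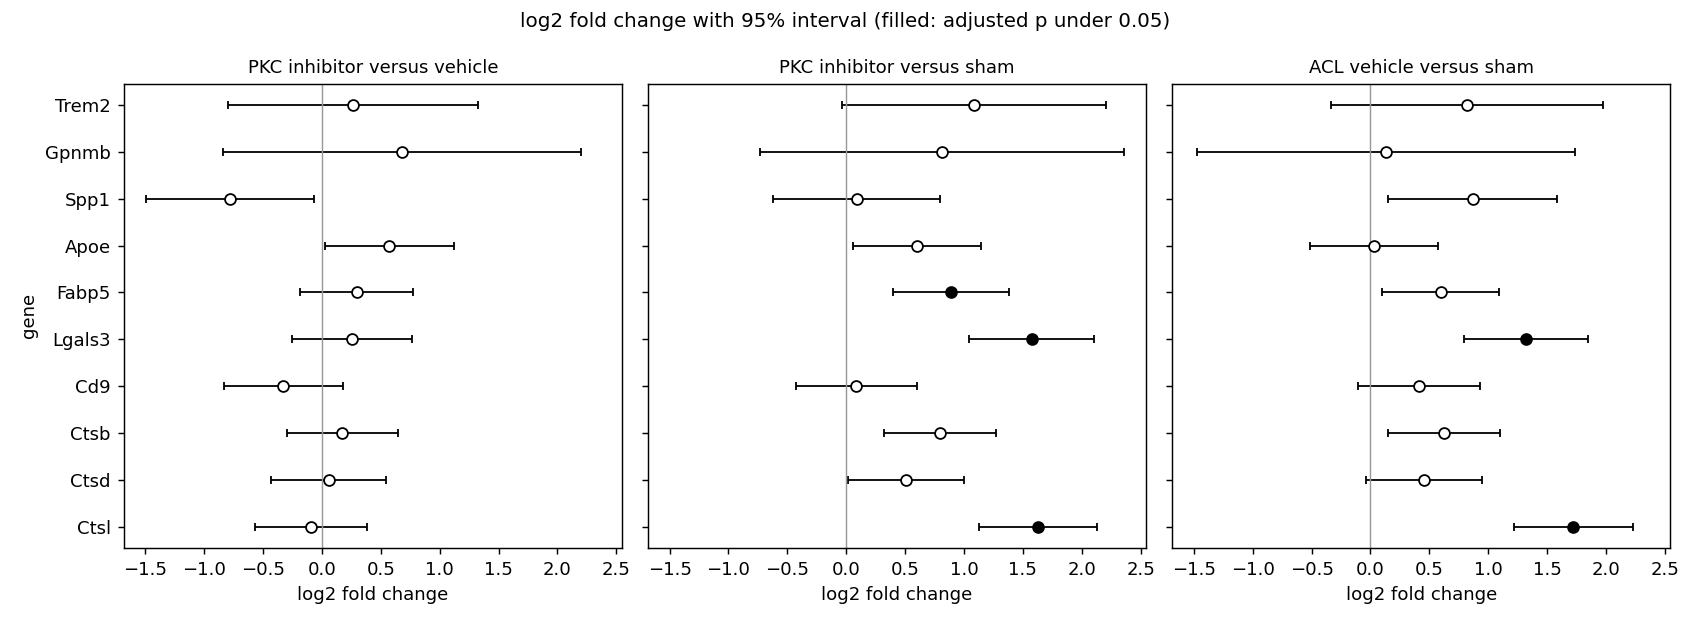
Log2 fold changes of the 10 genes (points) with 95% intervals (lines) for PKCi against vehicle, PKCi against sham and vehicle against sham. Filled points passed an adjusted p of 0.05. Against vehicle no point is filled, and against sham the largest values are those of Ctsl, at 1.63 in PKCi and 1.72 in vehicle knees.

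Set side by side, some of the 10 genes passed the test against sham in both injured groups, and none passed between the injured groups. For PKCi against vehicle, 0 of the 10 genes passed with edgeR, while 0.731% of all genes tested did (0.0289% higher and 0.702% lower). DESeq2 also made 0 calls among them. At an unadjusted p under 0.05, 1 of the 10 was higher (Apoe) and 1 lower (Spp1), as were 5.19% and 8.25% of all genes. Their median log2 fold change was 0.21, with 7 of 10 positive, beside a median of 0.04 and 53.8% positive over all genes tested. Spp1 was the 1 member without overlap between these groups. It was lower in PKCi knees, as were 10.4% of all genes, while 8.44% lay higher without overlap.

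For PKCi against sham, 3 of 10 genes passed, all higher (Ctsl, Lgals3 and Fabp5), while 3.95% of all genes passed (1.27% higher and 2.68% lower). The median was 0.80, beside 0.03 over all genes, all 10 were positive, as were 52.4% of all genes, and 6 had PKCi libraries above all sham libraries, as did 11.2% of all genes (11.6% lay below). For vehicle against sham, 2 of 10 passed, both higher (Ctsl and Lgals3), while 0.304% of all genes passed (0.282% higher and 0.0217% lower). The median was 0.61, beside -0.02 over all genes, all 10 were positive, as were 48.1% of all genes, and 4 (Spp1, Fabp5, Lgals3 and Ctsl) had vehicle libraries above all sham libraries, as did 8.2% of all genes (8.76% lay below). These 2 comparisons share the sham libraries. The 10 genes were also chosen with earlier results of these data known, so their shares beside those of all genes are a description only.

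A covariate for macrophage content, the mean log2 CPM of Adgre1, Csf1r, C1qa, C1qb and C1qc, was added after the data had been seen. With it, 0 of the 10 genes passed for PKCi against sham (Ctsl adjusted p = 0.2, Lgals3 0.228, Fabp5 0.5), and Ctsl alone passed for vehicle against sham (adjusted p = 0.0158, Lgals3 0.108). For PKCi against sham that fit made 1 call among all genes, against 546 without the covariate. The covariate was higher in every PKCi library than in every sham library.

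The 10 genes varied together across the 9 libraries to differing degrees. Over the 45 pairs, Pearson's r of log2 CPM had a median of 0.56, a description of libraries that share groups and normalisation. It was highest for Lgals3 and Ctsl (0.95) and lowest for Apoe and Cd9 (-0.07). Sham replicate 1 was the lowest library for 5 of the genes and sham replicate 2 for 3, while PKCi replicate 3 was the highest for 4. Of 13804 other genes, those whose log2 CPM followed the mean profile of the 10 most closely over the 9 libraries were Ctss, the gene of cathepsin S (r = 0.97), Spats2 (0.96), Ier5l (0.95), Fcgr1, an activating receptor for IgG (0.95), and Angptl4, a secreted inhibitor of lipoprotein lipase (0.95).

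None of the genes that act beside TREM2 passed the test. Of 11 signalling partners and paralogues, 0 passed in any comparison with edgeR or with DESeq2, and their median log2 fold change was -0.38 for PKCi against vehicle, -0.39 for PKCi against sham and 0.09 for vehicle against sham. At an unadjusted p under 0.05, 2 were lower for PKCi against vehicle, 1 was lower for PKCi against sham and 0 differed for vehicle against sham. Over all genes, 7.83% were higher and 10.1% lower at that p for PKCi against sham, and 4.47% higher and 3.81% lower for vehicle against sham. Tyrobp, the adaptor, had 388 ± 176 normalised counts in PKCi, 433 ± 90.1 in vehicle and 370.0 ± 50.3 in sham knees. Syk, the kinase, had 565 ± 199 in PKCi, 667 ± 95.8 in vehicle and 754 ± 51.3 in sham knees.

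Of 12 receptors for apolipoprotein E, osteopontin and GPNMB, 1 passed in each comparison. Their median log2 fold change was -0.32 for PKCi against vehicle, -0.16 for PKCi against sham and 0.27 for vehicle against sham. In the same order, 0.731%, 3.95% and 0.304% of all genes passed. For PKCi against sham DESeq2 called 1 receptor higher, Sdc4, and 2 lower, Lrp8 and Sorl1. Sdc4, a heparan sulphate proteoglycan to which GPNMB binds, rose against sham in both injured groups. It had 162, 307 and 280.4 normalised counts in PKCi knees, 366, 254 and 286 in vehicle knees, and 66.3, 131 and 106 in sham knees. Its rise was 2.48-fold in PKCi (adjusted p = 0.0219) and 3.0-fold in vehicle knees (adjusted p = 0.0326). Lrp8, a receptor for apolipoprotein E, was the 1 gene of these lists that passed for PKCi against vehicle. It had 33.0, 36.2 and 53.2 normalised counts in PKCi knees, 86.4, 106 and 105 in vehicle knees, and 90.7, 65.6 and 90.5 in sham knees, so that all PKCi libraries lie below all others. It fell 2.47-fold against vehicle (log2 fold change -1.30, SE 0.28, adjusted p = 0.0432). This fall passed in 1 of the 9 fits with 1 library left out, with adjusted p values up to 0.211, and the log2 fold change was -0.90 without PKCi replicates 1 and 2 (adjusted p = 0.525).

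Genes of lipid uptake and storage included larger changes than those of the 10 genes. Of 21 tested, 0 passed for PKCi against vehicle (DESeq2 called 1 higher, Pltp, and at an unadjusted edgeR p under 0.05 there were 3 higher and 1 lower). For PKCi against sham 3 rose, and for vehicle against sham 2 rose, as did 1.27% and 0.282% of all genes. The medians of the 3 comparisons were 0.24, 0.53 and 0.07. For PKCi against sham DESeq2 called 4 of this list higher and 1 lower. Msr1, the scavenger receptor that takes up modified lipoprotein, had 39.8, 131 and 117 normalised counts in PKCi knees, 109.7, 84.4 and 127 in vehicle knees, and 11.6, 7.87 and 9.43 in sham knees. The groups are far apart, with the lowest injured knee, PKCi replicate 1, above every sham knee. Against sham it rose 9.77-fold in PKCi knees (adjusted p = 0.00321) and 10.9-fold in vehicle knees (adjusted p = 0.00583). Lipa, the lysosomal acid lipase, had 139, 82.6 and 113 normalised counts in PKCi knees, 51.5, 49.9 and 80.5 in vehicle knees, and 26.7, 44.6 and 35.8 in sham knees. It rose 3.11-fold in PKCi against sham knees (adjusted p = 0.0122). The third was Plin2, a coat protein of lipid droplets, at 567 ± 209 in PKCi, 554 ± 183 in vehicle and 143 ± 26.2 in sham knees.

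**Figure D3:**
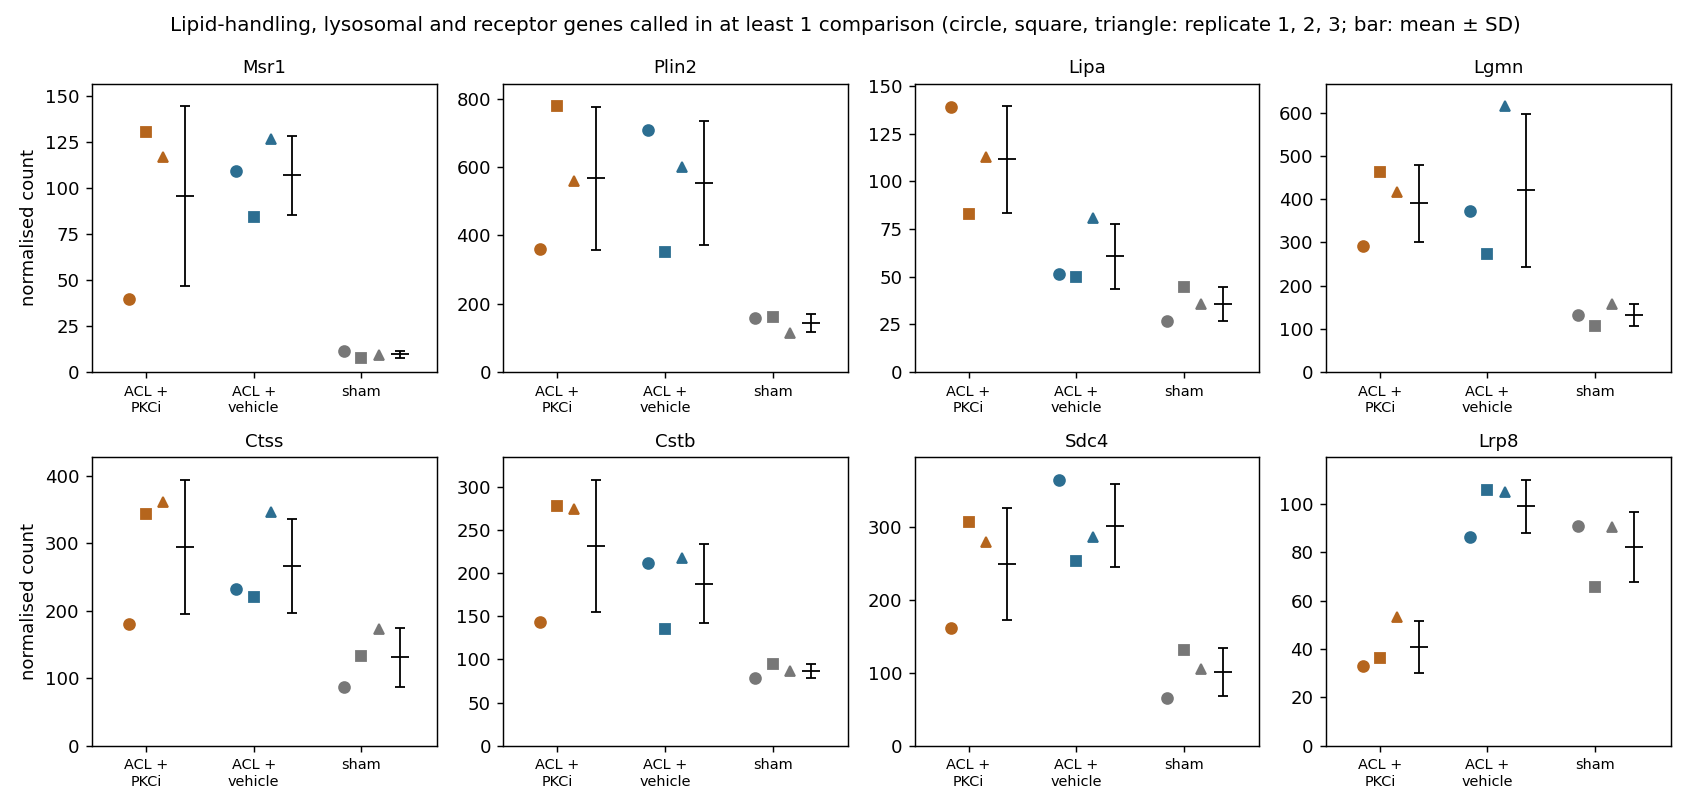
Normalised counts (linear axes from 0) by library of 8 genes of lipid handling, the lysosome or receptors that passed in at least 1 comparison. Circles, squares and triangles are replicates 1, 2 and 3, and the bar is mean ± SD. The 7 genes other than Lrp8 lie above all sham libraries in every injured library, while Lrp8 is lowest in the 3 PKCi libraries, at 33.0 to 53.2.

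Of 11 other cathepsins and lysosomal proteases, 0 passed for PKCi against vehicle (1 higher and 1 lower at an unadjusted p under 0.05, and 1 lower, Ctse, with DESeq2). Against sham, 2 rose and 1 fell in PKCi knees and 1 rose in vehicle knees. Of all genes, 1.27% rose and 2.68% fell in PKCi knees and 0.282% rose in vehicle knees. Lgmn, the asparaginyl protease legumain that processes cathepsins, had 390.4 ± 88.5 normalised counts in PKCi, 421 ± 177 in vehicle and 132 ± 25.5 in sham knees, and rose 2.96-fold in PKCi (adjusted p = 0.0108) and 3.19-fold in vehicle knees (adjusted p = 0.0288). Ctss rose 2.27-fold in PKCi against sham knees (adjusted p = 0.0488), with 295 ± 99.5 in PKCi, 266 ± 69.7 in vehicle and 131 ± 43.2 in sham knees. Ctse, an aspartic protease outside the lysosome, fell in PKCi against sham knees (109 ± 33.2 normalised counts in PKCi and 346 ± 67.7 in sham knees, log2 fold change -1.68, adjusted p = 0.0192), with 255 ± 113 in vehicle knees.

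Of 3 cathepsin inhibitors tested, Cstb (cystatin B), which inhibits cathepsins B and L in the cytosol, rose 2.68-fold in PKCi against sham knees (adjusted p = 0.0119), with 232 ± 76.6 in PKCi, 188 ± 45.4 in vehicle and 86.3 ± 8.25 in sham knees. Of 25 other lysosomal genes, Cd68 rose in PKCi against sham knees (2.25-fold, adjusted p = 0.0236) and 0 passed in the other comparisons with edgeR. At an unadjusted p under 0.05, 1 of the 25 was higher for PKCi against vehicle, and 3 were higher and 1 lower for vehicle against sham, where DESeq2 called 1 higher, Cd63. Their median log2 fold change was 0.11 for PKCi against vehicle, 0.28 for PKCi against sham and -0.01 for vehicle against sham, close to that of all genes in the first and last. Among 12 other tetraspanins and galectins, Lgals1, the gene of galectin-1, rose 2.0-fold in PKCi against sham knees (adjusted p = 0.0158), while Cd37 (log2 fold change -1.13, adjusted p = 0.0205) and Cd82 (-0.96, adjusted p = 0.0396) fell. Lgals1 had 792 ± 96.1 normalised counts in PKCi, 657 ± 59.4 in vehicle and 396 ± 90.2 in sham knees. Its vehicle libraries also lay above all sham libraries (log2 fold change 0.73, adjusted p = 0.2). In the other comparisons edgeR called 0 of the 12. At an unadjusted p under 0.05, 3 were higher for vehicle against sham and 2 lower for PKCi against vehicle. DESeq2 called 1 higher in the former, Cd63, and 1 lower in the latter, Cd82.

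When 1 library was left out, the rises of Msr1 and Plin2 in PKCi against sham knees passed in 9 of 9 fits, those of Lgmn, Lipa, Cstb and Lgals1 and the fall of Cd37 in 7, that of Sdc4 in 6, those of Cd68 and Ctse in 5, and those of Ctss and Cd82 in 1. In vehicle against sham knees, Msr1 passed in 5, Lgmn and Plin2 in 4 and Sdc4 in 3 of 9 fits. Each of these losses for vehicle against sham followed from leaving out a sham or vehicle library, with adjusted p values up to 0.0881 for Msr1, 0.177 for Lgmn, 0.165 for Plin2 and 0.225 for Sdc4.

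Markers of other cells differed between the groups, and their part in the values of the 10 genes was not tested. Of 15 neutrophil markers, 7 fell in PKCi and 1 in vehicle against sham knees. Of 8 chondrocyte markers tested, 5 fell in PKCi against sham knees. Of all genes tested, 2.68% fell in PKCi and 0.0217% in vehicle against sham knees. At an unadjusted p under 0.05, 12 of the 15 neutrophil markers were lower in vehicle than in sham knees, as were 3.81% of all genes. For PKCi against vehicle edgeR called 0 of the 8 chondrocyte markers and DESeq2 3 lower. At an unadjusted p under 0.05, 6 were lower, as were 8.25% of all genes. Of 16 muscle markers, 14 had vehicle libraries below all sham libraries, as did 8.76% of all genes. The summed level of the neutrophil markers had a lowest, median and highest value of 9516, 10760 and 20078 in PKCi knees, 9761, 11147 and 12317 in vehicle knees, and 17287, 21206 and 23999 in sham knees. The summed muscle markers were 41604 in PKCi replicate 1, against 3464 and 7119 in the other PKCi libraries, 7342 to 9631 in vehicle knees and 12633 to 32784 in sham knees. That library also had the highest adipocyte and endothelial sums, at 2871 and 2528. Osteoclast markers ran from 872 to 1647 in PKCi, 1038 to 1854 in vehicle and 1580 to 2225 in sham knees. No marker of the neutrophil, chondrocyte, muscle, adipocyte, endothelial or osteoclast list was at 0 in a whole group. With the muscle marker level as a covariate, 3 of the 10 genes passed for PKCi against sham, 0 for PKCi against vehicle and 2 for vehicle against sham.

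**Figure D4:**
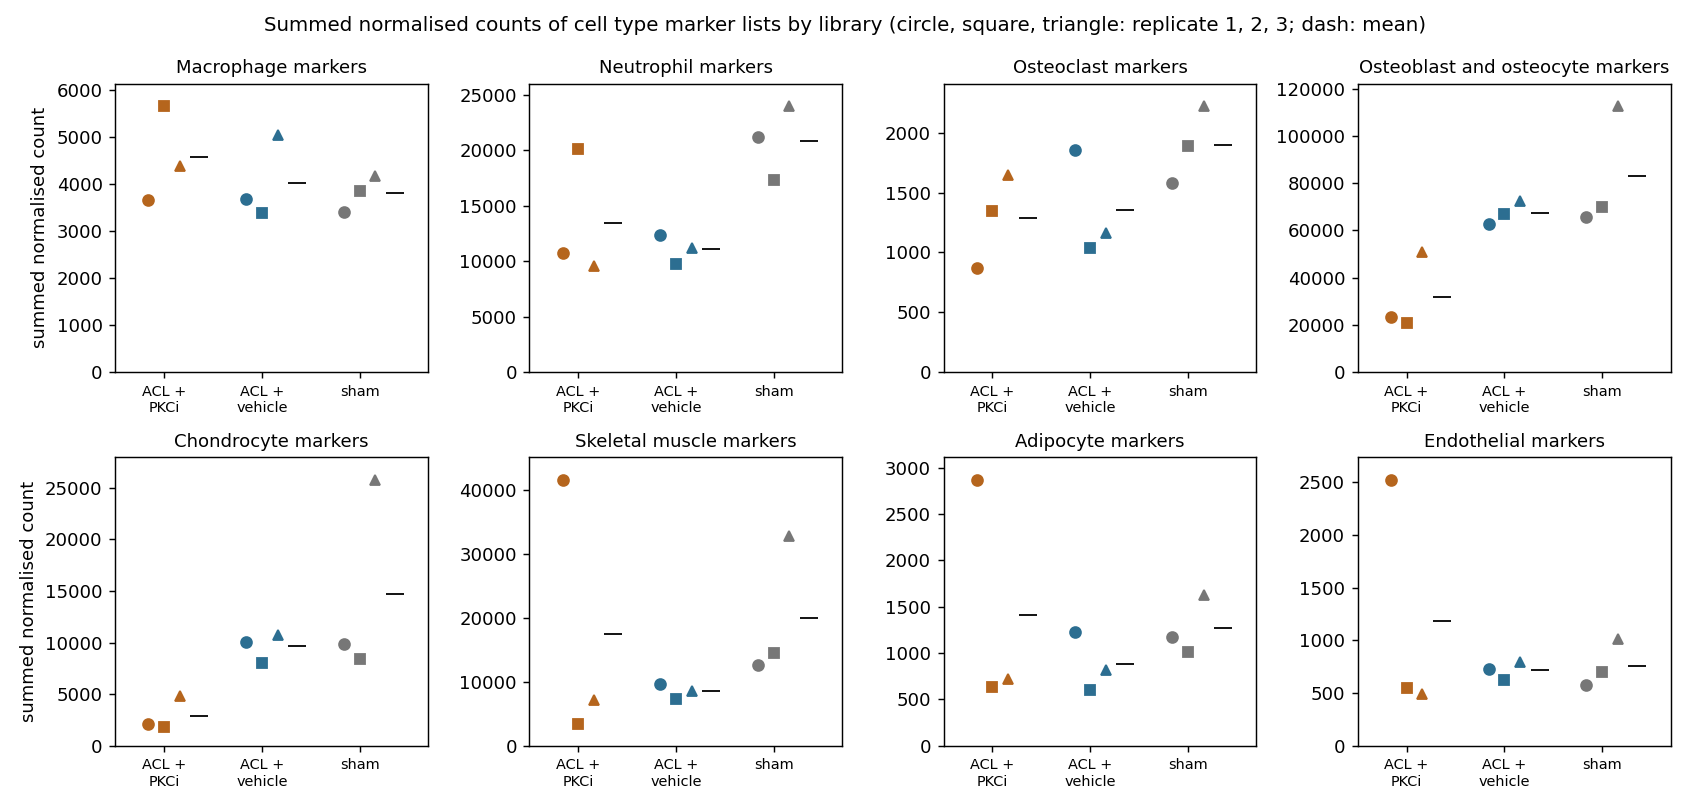
Summed normalised counts (linear axes from 0) of 8 cell type marker lists by library. Circles, squares and triangles are replicates 1, 2 and 3, and the dash is the mean. Macrophage sums overlap between the groups, at 3657 to 5658 in PKCi, 3370 to 5033 in vehicle and 3400 to 4175 in sham knees, and Cd68 alone of the 18 markers tested in that list passed edgeR's test, higher in PKCi than in sham knees. The mean log2 CPM of Adgre1, Csf1r, C1qa, C1qb and C1qc, a set chosen after the data had been seen, is not drawn. It was higher in every PKCi library than in every sham library, as were 11.2% of all single genes tested. Lyz2 and Itgam, the macrophage markers of highest level, overlapped between PKCi and sham knees. Chondrocyte sums of the PKCi knees lie below those of all other knees.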

How the data were processed

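Per the labels, total RNA was depleted of ribosomal RNA and sequenced as 100 bp read pairs on a DNBSEQ-G400. The deposited values are raw counts per gene, which the authors made with featureCounts 2.0.1 on the reverse strand over GENCODE M25 exons, per the file headers, counting multi-mapping reads and reads over several genes in full for each gene. The submitters' processing notes name HISAT2 and mm10. The 27 columns of 2 further count tables carry codes that match no label and were not used. Here, edgeR 4.0.16 (R 4.3.3; TMM, filterByExpr, robust quasi-likelihood) was fitted to the 9 libraries with 1 mean per group, which kept 13823 genes. SE is the log2 fold change over the root of F. DESeq2 1.42.0 was an alternative, and the fit was tested on simulated counts. The 10 members and the other gene lists were chosen with earlier results of these data known. Of the other lists, genes past the threshold were named, otherwise the 2 of highest level, and 5 genes by likeness to the members' mean profile. Counting error is smallest for the 2 PKCi libraries with most counts outside 7SL.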

Additional observations from a re-analysis of the deposited data

How the results depend on the processing

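The 10 genes gave 0 calls for PKCi against vehicle in all alternatives. For PKCi against sham they gave 2 to 4 calls with 1 library left out and 0 with the macrophage covariate. For vehicle against sham they gave 0 to 3 with 1 library left out, 1 with the replicate block and 1 with the macrophage covariate. With 1 library left out, their median log2 fold change ran from 0.05 to 0.35 for PKCi against vehicle, 0.62 to 0.92 for PKCi against sham and 0.47 to 0.85 for vehicle against sham; the macrophage covariate turned the first to -0.0014. The replicate numbers did not pair the libraries: deviations of same-numbered libraries correlated at -0.24 to 0.07 over 9 pairs, and 2 of 9 libraries correlated best with their own number.

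Counts of calls among all genes moved more. For PKCi against vehicle (101) there were 330 with DESeq2, 554 without a low-count filter, 3 with only these groups fitted, 318 with the muscle covariate, 20 without PKCi replicates 1 and 2, 0 with the macrophage covariate and 0 to 256 with 1 library left out. For PKCi against sham (546) these were 858, 1056, 198, 1189, 174, 1 and 141 to 841. For vehicle against sham (42) they were 147, 262, 291, 222, 301, 10 and 1 to 234, with 24 under the replicate block.

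Signs turned only for members that had not passed. For PKCi against vehicle, Ctsd was -0.022 and Ctsl 0.040 without PKCi replicates 1 and 2, and Ctsb was -0.037 and Ctsd -0.15 with the macrophage covariate. With 1 library left out, Trem2 ran from -0.0060 to 0.57, Lgals3 from -0.090 to 0.43, Ctsb from -0.0066 to 0.33, Ctsd from -0.13 to 0.27 and Ctsl from -0.28 to 0.066. For PKCi against sham, Spp1 was -0.44 with the muscle and -0.32 with the macrophage covariate, and -0.25 to 0.43 with 1 library left out. Cd9 was -0.078 without PKCi replicates 1 and 2, -0.017 with the macrophage covariate and -0.12 to 0.33 with 1 library left out. For vehicle against sham, Apoe was -0.022 with the replicate block, -0.089 with the muscle covariate, -0.17 with the macrophage covariate and -0.25 to 0.20 with 1 library left out, and Gpnmb was -0.21 with the macrophage covariate and -0.45 to 1.05 with 1 library left out.

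Spp1 for vehicle against sham passed without a low-count filter (adjusted p = 0.0153) and with only these groups fitted (0.0223), and Ctsb for PKCi against sham with DESeq2 (0.014). The replicate block took Lgals3 for vehicle against sham to 0.0704 and Fabp5 for PKCi against sham to 0.0785. The cause of these shifts was not tested. Trem2 had 5 to 110 and Gpnmb 5 to 73 counts per library, with coefficients of variation of 43.5% and 53.2% in PKCi knees.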
